A study of Arabidopsis thaliana with 6 samples.

Results

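Small RNA sequencing of Arabidopsis leaves was used to follow 3 miRNAs whose reads were kept without the processing factor HYL1, namely ath-miR5026, ath-miR840 and ath-miR866. They were chosen on measured values of these libraries, their level in hyl1-2, so their hyl1-2 against WT values are a description and carry no test. All rows of the count table that bear these names were taken, which gave 5 mature sequences of the 349 listed: miR5026, miR840-5p, miR840-3p, miR866-3p and miR866-5p. RNA was taken from the rosette leaves of plants raised in soil for 3 weeks, in 3 genotypes of 2 biological replicates each, and no group was treated. WT was Col; hyl1-2 is mutated in HYL1, which binds double-stranded RNA; and snrk2.2/3/6 is a triple mutant of the abscisic acid-activated kinases SnRK2.2, SnRK2.3 and SnRK2.6. How many plants made up a library is not given in the sources used here, and the mutated genes themselves are not measured by this assay.

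Plant miRNAs are cut from the stem of a folded primary transcript by DCL1, which works with HYL1 and the zinc finger protein SERRATE. The cut leaves a duplex of a 5p and a 3p strand with short 3′ overhangs, and usually one strand is loaded into an ARGONAUTE protein while the other is degraded. In Arabidopsis AGO1 prefers small RNAs that begin with U and AGO2 those that begin with A. Young miRNA genes often have long, well-paired hairpins, and some, such as MIR822 and MIR839, are cut by DCL4 in place of DCL1.

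The 5 member sequences are shown because the detected strands differ in their first base from the strands at or near 0 reads. They are written 5′ to 3′ as DNA, as the deposited table gives them, with the seed (bases 2 to 8) in capitals.
miR5026: aCTCATAAgatcgtgacacgt
miR840-5p: aCACTGAAggacctaaactaac
miR840-3p: tTGTTTAGgtcccttagtttc
miR866-3p: aCAAAATCcgtctttgaaga
miR866-5p: tCAAGGAAcggattttgttaa
Their lengths are 21, 22, 21, 20 and 21 nt. None of the 5 seeds occurs as the seed of another of the 349 sequences. miR5026, miR840-5p and miR866-3p begin with A, and the strands at or near 0 reads, miR840-3p and miR866-5p, begin with T (U in the RNA). Of all 349 sequences 23.78% begin with A and 56.45% with T.

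Each of the 3 miRNAs is annotated to a locus of its own, on 3 chromosomes. Positions are exact matches to TAIR10.1 with its RefSeq annotation, while the authors mapped to TAIR10. miR5026 matched chr4:7844612-7844632 on the plus strand, in MIR5026 (AT4G06075), which lies within an intron of the noncoding RNA gene AT4G13495 (intron 7843619 to 7846239). That host gene spans 7842967 to 7846774 and also holds MIR850 in the same intron and the start of MIR863. miR5026 had a second exact match, chr5:14318730-14318750 on the minus strand, in no annotated gene. Reads from the 2 places cannot be told apart by sequence. A window of 193 nt around the second match shared a run of 36 identical bases with MIR5026 but only 96 identical positions in all, and its predicted fold reached -28.1 kcal/mol with a longest helix of 10 bp. miR840-5p (chr2:771492-771513) and miR840-3p (chr2:771385-771405) lie on the minus strand in MIR840 (AT2G02741). MIR840 is within the 3′ untranslated part of the exon of AT2G02750, which encodes a pentatricopeptide repeat protein on the same strand, and 101 nt beyond the annotated end of the convergent gene WHY3, which encodes an organelle DNA-binding protein. miR866-3p (chr5:16157838-16157857) and miR866-5p (chr5:16157911-16157931) lie on the minus strand in MIR866 (AT5G40384), which overlaps no other annotated gene.

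The hairpins of MIR5026 and MIR866 are printed to show the arm that carries the miRNA, with the mature sequences in capitals. The first is chr4:7844496-7844688 on the plus strand and the second chr5:16157823-16157948 on the minus strand, both of TAIR10.1. The hairpin of MIR840 is not printed.
MIR5026: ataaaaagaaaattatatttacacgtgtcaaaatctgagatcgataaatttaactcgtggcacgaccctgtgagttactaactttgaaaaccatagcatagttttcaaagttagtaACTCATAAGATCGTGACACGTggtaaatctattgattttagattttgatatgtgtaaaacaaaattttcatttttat
MIR866: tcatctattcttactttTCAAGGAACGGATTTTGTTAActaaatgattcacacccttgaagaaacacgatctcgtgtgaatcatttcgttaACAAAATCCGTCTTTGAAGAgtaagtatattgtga
The 3 precursors did not share 1 hairpin type. Folded with RNAfold, MIR5026 held an unbroken helix of 29 bp, against a median of 12 bp and an upper quartile of 19 bp over the 326 annotated Arabidopsis precursors. MIR866 held 15 bp and MIR840 12 bp. Their folding energies per 100 nt were -47.3, -46.3 and -43.3 kcal/mol for MIR5026, MIR866 and MIR840, all below the median of -39.4. From the start of the 5p to the end of the 3p strand MIR840 measured 129 nt and MIR866 94 nt, where the median of 92 precursors with both strands annotated was 94.5 nt. The predicted miR840 duplex had 17 base pairs between its strands with 3′ overhangs of 1 and 2 nt, and the miR866 duplex 17 base pairs with overhangs of 3 and 3 nt. Across 39 sequences that averaged at least 10 reads a library and come from a single annotated precursor, Spearman's rho between the longest helix and the hyl1-2 level as percent of WT was 0.217, and between folding energy per 100 nt and that percent -0.0806. These are descriptions over sequences of the same 6 libraries. Strands of the same precursor count as separate sequences, and the members, chosen on their hyl1-2 level, are among them.

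**Figure D1:**
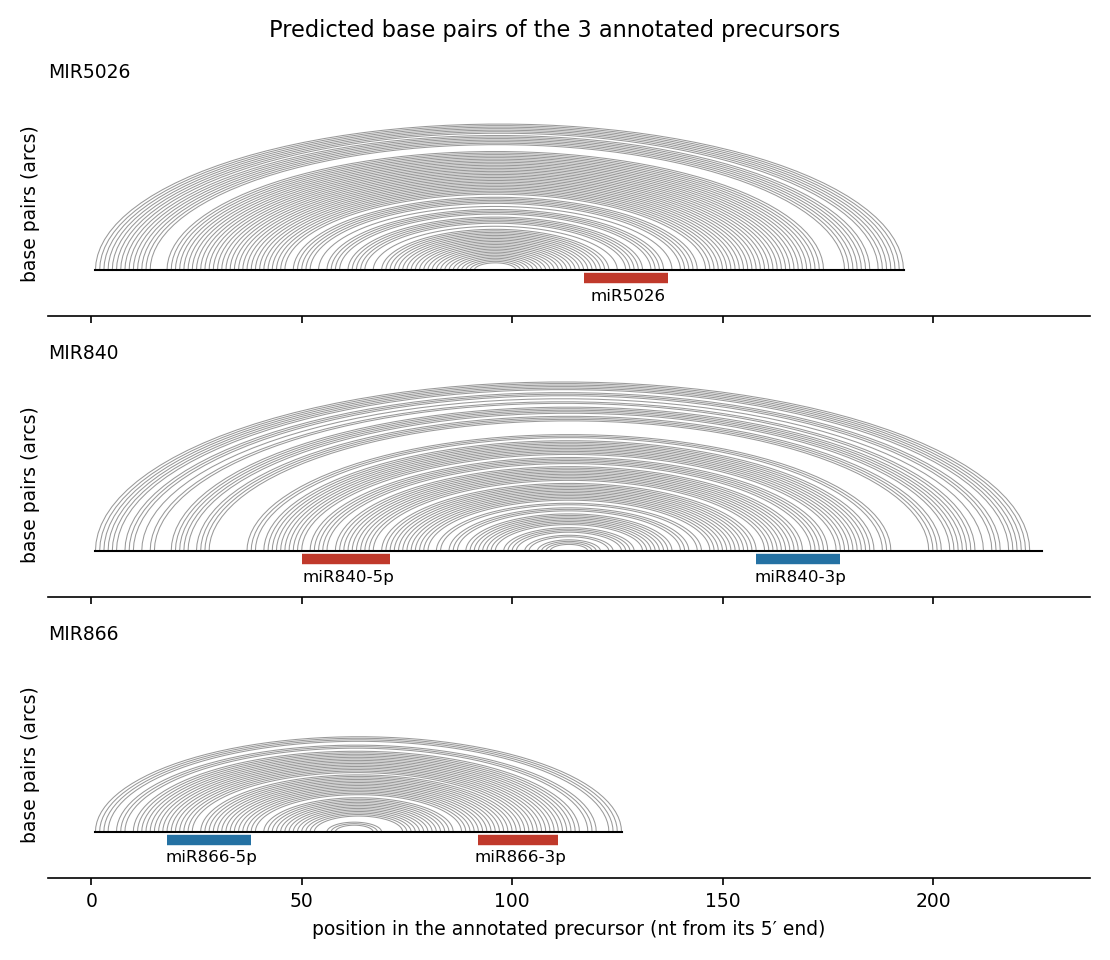
Predicted base pairs in the 3 precursors, each arc joining 2 paired bases along the position in the annotated precursor in nt, with red bars for the detected strands and blue bars for the strands at or near 0 reads. miR5026 sits on the 3′ arm between the 29 bp helix and the loop, and the detected strand is the 5p in MIR840 and the 3p in MIR866.

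The libraries held 16041013 to 19601046 reads matched to the genome, as recovered from each count and its normalized value. The authors normalized each count to reads per 10000000 genome-matched reads (RPTM). Of these reads 34567 and 30427 were identical to a mature miRNA in the WT libraries, 7141 and 6670 in those of hyl1-2, and 29014 and 10386 in those of snrk2.2/3/6. The first snrk2.2/3/6 library stood above the second in 57 of the 59 sequences that averaged at least 10 reads a library, so results on this genotype are given with and without each of its libraries. These 59 sequences are called tested sequences here. The floor of 3 reads corresponded to 1.53 to 1.87 RPTM, and reads carry no molecular identifiers, so floors and intervals cover counting error only.

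Of the 5 member sequences 3 passed the filter, miR5026 widely, miR840-5p through its hyl1-2 reads and miR866-3p with 62 reads in all, of which 29 came from the first snrk2.2/3/6 library. miR840-3p had 3 reads over all 6 libraries, and miR866-5p had none.

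miR5026 was the abundant member and was level between WT and hyl1-2. It had 1318 and 1672 reads in the WT libraries, 1443 and 1838 in those of hyl1-2, and 2214 and 531 in those of snrk2.2/3/6. In RPTM these were 806.1 and 1026 in the WT libraries, 736.2 and 998.6 in those of hyl1-2, and 1311 and 331.0 in those of snrk2.2/3/6. The WT and hyl1-2 libraries overlapped, while the widest gap lay between the 2 libraries of snrk2.2/3/6, one above and one below all other libraries. Means were 916 ± 155 RPTM in WT, 821 ± 693 in snrk2.2/3/6 and 867 ± 186 in hyl1-2 (SD, n = 2 each), and hyl1-2 stood at 94.7% of WT.

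miR840-5p was scarce in WT and had far more reads in hyl1-2. It had 2 and 5 reads in the WT libraries, 69 and 34 in those of hyl1-2, and 19 and 4 in those of snrk2.2/3/6. The levels were 1.22 and 3.07 RPTM in the WT libraries, 35.2 and 18.5 in those of hyl1-2, and 11.2 and 2.49 in those of snrk2.2/3/6. Both hyl1-2 libraries lay above every other library, one WT library lay under the floor of 3 reads, and WT and snrk2.2/3/6 overlapped. Means were 2.15 ± 1.30 RPTM in WT, 6.87 ± 6.19 in snrk2.2/3/6 and 26.8 ± 11.8 in hyl1-2 (SD, n = 2 each). hyl1-2 was 12.5-fold WT by means and 12.6-fold by pooled reads (103 against 7 reads), with a 95% counting interval of 5.92 to 32.2. That interval treats the pooled reads as independent and leaves out the gap between the libraries of a genotype. It is no test, because miR840-5p was chosen on this contrast. The hyl1-2 level of miR840-5p was 875% of WT without WT replicate 1 and 2194% without WT replicate 2.

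miR866-3p was low throughout. It had 4 and 7 reads in the WT libraries, 8 and 7 in those of hyl1-2, and 29 and 7 in those of snrk2.2/3/6. The levels were 2.45 and 4.29 RPTM in the WT libraries, 4.08 and 3.80 in those of hyl1-2, and 17.2 and 4.36 in those of snrk2.2/3/6. The first snrk2.2/3/6 library stood apart and the other 5 lay close together. Means were 3.37 ± 1.31 RPTM in WT, 10.8 ± 9.05 in snrk2.2/3/6 and 3.94 ± 0.197 in hyl1-2 (SD, n = 2 each). hyl1-2 stood at 117.0% of WT by means, and its pooled ratio of 15 to 11 reads, 1.17-fold, had a counting interval of 0.503 to 2.82, so changes in this range could not be told from equal levels at this depth.

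**Figure D2:**
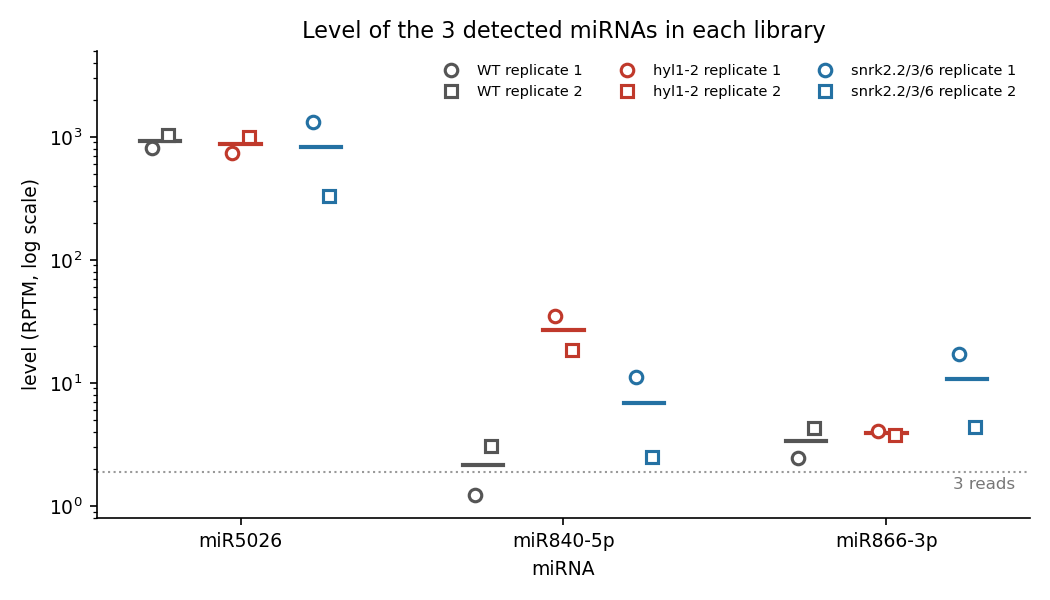
Level of the 3 detected members in each library (RPTM, log scale), with circles for replicate 1, squares for replicate 2, bars for the mean of both and a dotted line at the highest floor of 3 reads. miR5026 lies between 331.0 and 1311 RPTM, and only the hyl1-2 libraries of miR840-5p (35.2 and 18.5) and the first snrk2.2/3/6 library of miR840-5p (11.2) and of miR866-3p (17.2) rise above 10 RPTM for the other members.

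One strand of each duplex gave most reads in every genotype. For miR840 the 5p strand made up 98.1% of 105 reads in hyl1-2 (exact Clopper-Pearson 95% interval 93.3 to 99.8%), 87.5% of 8 reads in WT (47.3 to 99.7%) and 100% of 23 reads in snrk2.2/3/6 (85.2 to 100%). The 3p strand was seen with 1 read in the first WT library and 1 in each hyl1-2 library, all at or under the floor. For miR866 all 62 reads were the 3p strand (exact interval 94.2 to 100%). miR866-5p had 0 reads, under the floor of 3 reads (1.53 to 1.87 RPTM per library), which is not an exact limit. The intervals of the genotypes overlapped for both miRNAs, and 2 libraries against 2 are too few for an exact permutation test to pass 0.05. Only one strand is annotated for MIR5026.

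Most tested sequences were lower in hyl1-2 on the scale of genome-matched reads. Of the 59 tested sequences 67.8% were called lower in hyl1-2 than in WT by edgeR's quasi-likelihood test (adjusted p under 0.05) and 1.69% higher. These shares depend on the scale, with 25.4% lower and 16.9% higher with TMM factors, 28.8% and 13.6% with total miRNA counts, and 16.9% and 16.9% with DESeq2 size factors. In 3.39% of tested sequences both hyl1-2 libraries exceeded both WT libraries in RPTM. Since the members were chosen on this contrast, nothing about them is read from these shares. The summed miRNA level averaged 19905 RPTM in WT and 3633 in hyl1-2, 18.3% of WT, or 14.6% with miR5026 left out.

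The place of miR5026 among the miRNAs differed between the genotypes. It ranked 7 in both WT libraries and both snrk2.2/3/6 libraries (by read count), 2 in the first and 1 in the second hyl1-2 library. The 6 sequences above it in WT, of the miR158, miR159, miR161, miR166 and miR398 families, stood at 2.38% to 23.6% of WT in hyl1-2. miR5026 made up 3.81% and 5.50% of miRNA reads in the WT libraries, 20.2% and 27.6% in those of hyl1-2, and 7.63% and 5.11% in those of snrk2.2/3/6. The share of the first hyl1-2 library had an exact 95% interval of 19.3 to 21.2%, so the libraries of 1 genotype differed by more than counting error.

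miR840-5p ranked 102 and 79 in WT, and 15 and 17 in hyl1-2. It took 0.00579% and 0.0164% of miRNA reads in the WT libraries, 0.966% and 0.510% in those of hyl1-2, and 0.0655% and 0.0385% in those of snrk2.2/3/6. miR866-3p made up 0.0116% and 0.0230% of miRNA reads in the WT libraries, 0.112% and 0.105% in those of hyl1-2, and 0.09995% and 0.0674% in those of snrk2.2/3/6. For both, the WT shares were the lowest and did not overlap those of either mutant. In hyl1-2 the same held for 27.1% of tested sequences.

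**Figure D3:**
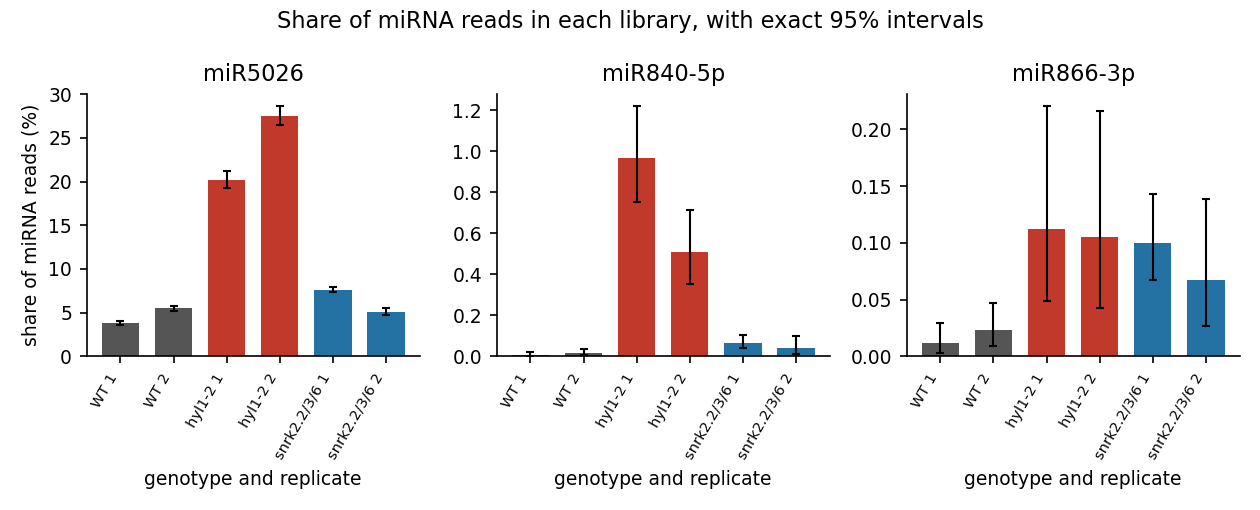
Share of all miRNA reads taken by each detected member in each library (percent, axis from 0), with exact 95% intervals for counting error. miR5026 takes 20.2% and 27.6% in hyl1-2 against 3.81% and 5.50% in WT.

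Where each member stood among the 61 sequences that averaged at least 10 RPTM in WT or hyl1-2 was read from the order of hyl1-2 level as percent of WT. The median of that order was 14.9%, and 8 of the 61 were at 50% of WT or more. Only miR840-5p and miR408-5p were under 10 RPTM in WT and entered through hyl1-2 alone, so that their high places follow from the entry limit. miR840-5p was first, at 1251%. The next below it was miR408-5p, the strand opposite the copper-responsive miR408, at 130.0% (16 and 12 reads in the WT libraries, 16 and 26 in those of hyl1-2), and its libraries overlapped between the genotypes. miR5026 was in the fourth place at 94.7%. Above it was miR393b-3p at 116%, the strand opposite miR393, which targets auxin receptors, with 112 and 124 reads in the WT libraries and 174 and 146 in those of hyl1-2. Below it was miR822-5p at 74.4%. Read by library, hyl1-2 stood at 80.4% and 109.0% of the WT mean for miR5026, 122.8% and 109.7% for miR393b-3p, and 92.7% and 56.1% for miR822-5p. miR5026 and miR822-5p thus overlapped, and miR5026 and miR393b-3p missed each other narrowly. The libraries of miR840-5p, at 1641% and 861%, lay far above those of miR408-5p, at 95.2% and 164.8%. miR866-3p was under 10 RPTM in both genotypes and has no place in the order.

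**Figure D4:**
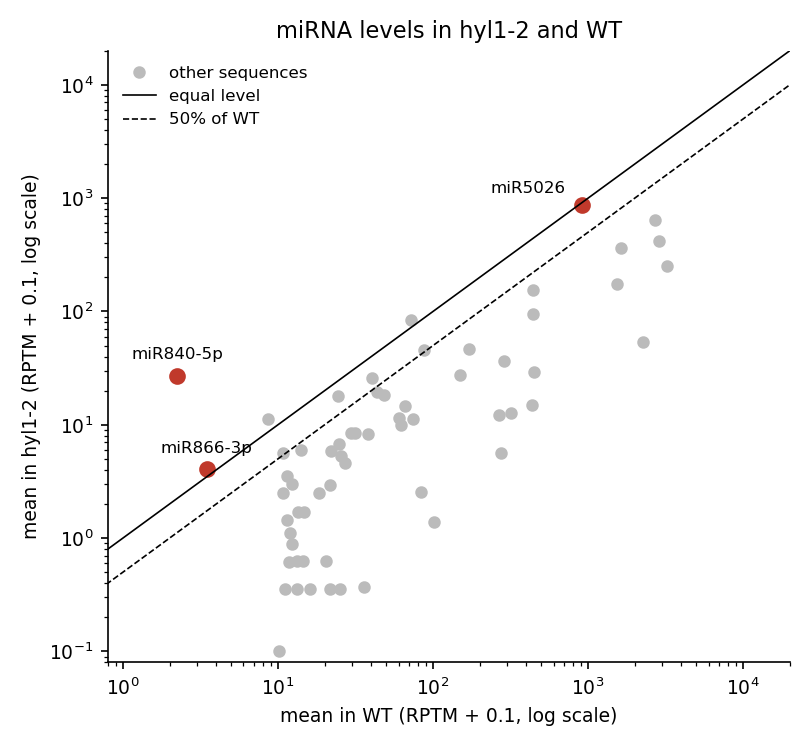
Mean level in hyl1-2 against mean level in WT (both as RPTM + 0.1 on log scales) for 59 other sequences in grey and the 3 detected members in red, with lines at equal level and at 50% of WT. miR5026 lies at the line of equal level, among sequences of similar WT level that all lie under the 50% line, and miR840-5p lies far above it.

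The scale decides how these levels read. On genome-matched reads the median log2 fold change of the 59 tested sequences in hyl1-2 was -2.62, whereas TMM factors, total miRNA counts and DESeq2 size factors, which centre on the miRNAs themselves, placed it at 0.12, -0.14 and -0.01. On those 3 scales miR5026 stood at 611%, 513% and 555% of WT, miR840-5p at 8719%, 6643% and 7233%, and miR866-3p at 778%, 628% and 680%. Of all tested sequences 15.3% were at 50% of WT or more on genome-matched reads, and 71.2%, 66.1% and 67.8% on the other 3 scales, where a level of 50% is common to most sequences.

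Families cut by DCL4 were placed beside the members as miRNAs with another dicer. Of the 5 listed sequences of miR822, miR839 and miR869 only miR822-5p passed the filter, and edgeR did not call it changed in hyl1-2. It had 32 and 47 reads in the WT libraries, 44 and 25 in those of hyl1-2, and 37 and 16 in those of snrk2.2/3/6, with overlap between all genotypes. miR822-3p had 6 and 3 reads in the WT libraries, 1 and 2 in those of hyl1-2, and 1 and 1 in those of snrk2.2/3/6, and miR839-5p, miR869.1 and miR869.2 had 0 reads in every library. The 5p strand of miR822 made up 89.8% of 88 reads in WT (81.5 to 95.2%) and 95.8% of 72 reads in hyl1-2 (88.3 to 99.1%). MIR822 had a longest helix of 21 bp, between those of MIR5026 and MIR866.

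Other miRNAs with a family number above that of the conserved miR408, without the members and the DCL4 list, were lower in hyl1-2 where tested. The number is a rough stand-in for young families and does not measure age. Of 231 listed 6 were tested, and edgeR called all 6 lower, with a median of 1.81% of WT, where the median of all tested sequences was 16.1%. Of these 6, 4 had 3 reads or fewer in both hyl1-2 libraries, so they passed the filter through the other genotypes. Of the 39 tested sequences of conserved families 24 were called lower, with a median of 20.6% of WT, and 5 were at 50% or more. Over all tested sequences 67.8% were called lower and 15.3% were at 50% or more.

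The other miRNAs of the MIR5026 host gene were near 0 and were looked at after their values were seen. miR850, from the same intron, had 1 and 1 reads in WT and 0 in the other 4 libraries. miR863-5p had 4 and 2 reads in the WT libraries, 1 and 0 in those of hyl1-2, and 7 and 0 in those of snrk2.2/3/6. miR863-3p had at most 2 reads in any library. In every library miR5026 was the only one of these with more than 7 reads.

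The first base was compared because the detected members share it, which was also noticed after the values were seen. Of the 59 tested sequences 9 begin with A, among them the 3 members. Of the other 6, edgeR called 1 lower in hyl1-2, their median was 44.6% of WT, and 3 were at 50% or more. These 3 were miR408-5p (130.0%), miR393b-3p (116%) and miR398b-5p/miR398c-5p (51.7%). They are the strands opposite miR408, miR393 and miR398b-3p/miR398c-3p, so strand and first base are mixed here. The rest, miR408-3p, miR390a-5p/miR390b-5p and miR391-3p, stood at 37.5%, 26.1% and 12.0%. miR408-5p and miR398b-5p/miR398c-5p had only 12 to 19 reads in a WT library. Of the 35 that begin with T, 28 were called lower, the median was 13.2%, and 2 were at 50% or more. Over all 59 tested sequences, members included, 67.8% were called lower and 15.3% were at 50% or more. With miR5026 left out, sequences that begin with A made up 1.13% and 1.11% of miRNA reads in the WT libraries, 6.02% and 5.98% in those of hyl1-2, and 2.02% and 1.60% in those of snrk2.2/3/6. The other detected members also begin with A and remain in these shares, and their own shares are given above. They were chosen on their hyl1-2 level, so the higher shares in hyl1-2 follow in part from the choice. The comparison by first base is a description of few sequences, among them both strands of miR408, and what moves with the first base was not tested.

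The snrk2.2/3/6 libraries played no part in the choice of members, so this contrast was tested. The WT libraries did, and a choice on hyl1-2 against WT favours low WT values, which can raise the fold changes here. edgeR's quasi-likelihood test on all 6 libraries, adjusted by Benjamini-Hochberg over the 59 tested sequences, called none of the 3 members changed. It called 3.39% of tested sequences lower and 0 higher, with 10 lower and 0 higher at an unadjusted p under 0.05. miR5026 had a log2 fold change of -0.16 (SE 0.75, adjusted p = 0.910). miR840-5p had 1.65 (SE 1.05, adjusted p = 0.384), and miR866-3p had 1.66 (SE 1.14, adjusted p = 0.439). The median of the 59 log2 fold changes was -0.72, and 14 were positive. miR866-3p averaged at least 10 reads a library only through the 29 reads of the first snrk2.2/3/6 library, with 33 reads in the other 5, so its high value in this genotype follows in part from the filter.

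By library the difference of the low members rested on the first snrk2.2/3/6 library. Without it the log2 fold change of miR840-5p was 0.21 and that of miR866-3p 0.37, and without the second library they were 2.35 and 2.32. miR5026 changed direction between the 2 libraries, from -1.47 without the first, where edgeR called it lower (adjusted p = 0.0259), to 0.52 without the second. That fit called 33.9% of tested sequences lower, and its lone snrk2.2/3/6 library is assumed to vary like the libraries of the other genotypes. In RPTM both snrk2.2/3/6 libraries lay above both WT libraries for miR866-3p, by 4.36 against 4.29 in the nearest pair, and this held for 5.08% of tested sequences. As shares of miRNA reads both miR840-5p and miR866-3p lay above WT in both libraries, as did 30.5% of tested sequences.

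Scaled to the miRNAs, the fold changes of all 3 members were higher. With TMM factors, total miRNA counts and DESeq2 size factors the median of all tested sequences was 0.07, 0.00 and 0.08, and miR5026 turned positive, at 0.46 to 0.54 and not called. miR866-3p was called higher with TMM factors (2.36, adjusted p = 0.0156) and with total miRNA counts (2.31, adjusted p = 0.0152) in edgeR, and not with DESeq2 size factors (2.39, adjusted p = 0.0638). miR840-5p was called higher with DESeq2 size factors (2.40, adjusted p = 0.0328) and not with edgeR on the other miRNA scales (adjusted p = 0.0875 and 0.0768). The share of tested sequences called higher was 6.78% with TMM factors and with total miRNA counts and 8.47% with DESeq2 size factors, and the calls of miR866-3p carry the limit of the filter given above. The calls of both miRNAs also rest on the WT libraries that the choice of members used.

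**Figure D5:**
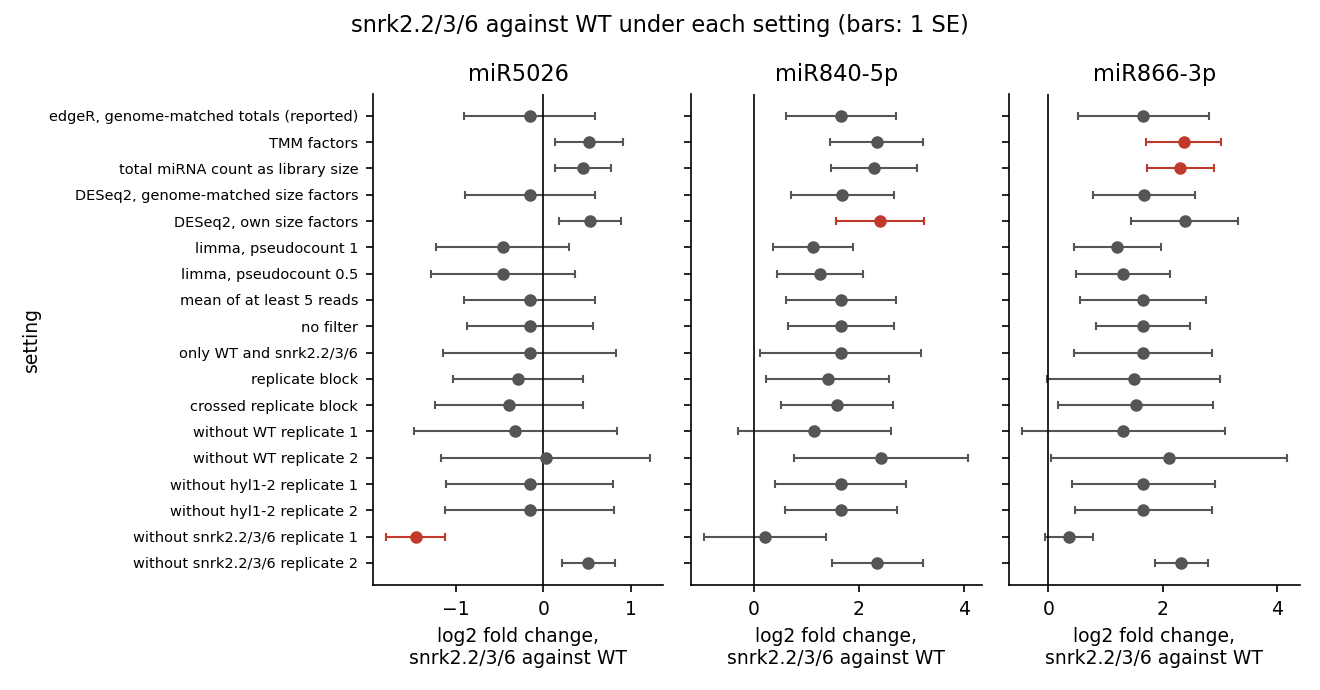
Log2 fold change of the 3 detected members in snrk2.2/3/6 against WT under each setting, with bars of 1 SE and red points for an adjusted p under 0.05. The reported values are -0.16, 1.65 and 1.66, and the points move most when the first snrk2.2/3/6 library is left out.

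Pearson's r of log2(RPTM + 1) over the 6 libraries is given as a description, because the sequences share libraries and depth. The hyl1-2 and WT values that chose the members are among them, so r and its median follow in part from the choice. The 3 sequences with the highest r are named for each member. For miR5026 these were miR393b-3p (r = 0.922), miR168a-5p/miR168b-5p (0.847), which targets AGO1, and miR396b-3p (0.839), with a median of 0.265 over the other tested sequences. miR393b-3p had 261 and 48 reads in snrk2.2/3/6, a wide gap between the 2 libraries like that of miR5026. The first library was the higher in 57 of the 59 tested sequences, so this direction is common to nearly all. For miR840-5p the highest were miR393b-3p (0.508), miR408-5p (0.393) and miR5026 (0.318), with a median of -0.647, so no tested sequence followed it closely. For miR866-3p they were miR398b-5p/miR398c-5p (0.799), miR395a/miR395d/miR395e (0.675), which act on sulfate assimilation, and miR163 (0.626), with a median of 0.200. miR398b-5p/miR398c-5p had 16 and 19 reads in the WT libraries, 10 and 11 in those of hyl1-2, and 47 and 11 in those of snrk2.2/3/6, and like miR866-3p it was high in the first snrk2.2/3/6 library alone. Among the members r was 0.318 for miR5026 with miR840-5p, 0.421 for miR5026 with miR866-3p and 0.290 for miR840-5p with miR866-3p.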

How the data were processed

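Libraries were prepared and run on a HiSeq 2500 at a core facility. After adaptor removal, reads between 18 and 30 nt were aligned to TAIR10, and those identical to a mature entry of miRBase release 21 were tallied by the authors. The aligner is not given in the sources used here. The deposited counts are raw reads per sequence. The deposited RPTM values, a signal, are these counts scaled by the authors to 10000000 genome-matched reads of the library. Genotype and replicate came from the sample titles. The members and lists were chosen with earlier results of these data known. The named sequences are all member rows, the 3 most correlated tested sequences for each member, their neighbours in the order of hyl1-2 percent of WT, and miR822, miR839 and miR869.

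Here counts were fitted with edgeR 4.0.16 in R 4.3.3 (glmQLFit and glmQLFTest, genotype only, no TMM factors, library sizes set to the genome-matched totals, mean of at least 10 reads, Benjamini-Hochberg). SE is the log2 fold change over the square root of F. Replicates differed beyond sampling noise in every genotype (chi-square per degree of freedom 10.5 to 18.0). Precursors were folded with ViennaRNA 2.7.2. Alternatives used DESeq2 1.42.0, limma 3.58.1, other scales, filters, a replicate block and single libraries left out. The rest ran in Python 3.11.15 with scipy 1.17.1, numpy 2.4.6, pandas 2.3.3 and matplotlib 3.10.9.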

Additional observations from a re-analysis of the deposited data

How the results depend on the processing

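With 2 libraries a genotype the precision is set by the gap within snrk2.2/3/6 and by single reads of miR840-5p in WT. The number of sequences called lower in snrk2.2/3/6, 2 as reported, was 4 with TMM factors, total miRNA counts and either DESeq2 scale, 6 and 5 with limma at pseudocounts of 1 and 0.5, and 0 without a filter. The number called higher, 0 as reported, was 4 with TMM factors and total miRNA counts and 5 with DESeq2's own size factors. Of the members, 0 as reported, 1 was called with each of these 3 scales. Leaving out 1 library gave 0 to 20 sequences lower and 0 to 1 members called, the 20 and the 1 member (miR5026) without the first snrk2.2/3/6 library, where the lone library left is assumed to vary like the others. miR5026 changed direction with TMM factors (0.52), total miRNA counts (0.46) and DESeq2's own size factors (0.54), and between -1.47 and 0.52 when 1 library was left out (0.03 without the second WT library). The log2 fold changes of miR840-5p and miR866-3p stayed positive in all 17 alternatives, at 0.21 to 2.43 and 0.37 to 2.39. The alternatives reuse the same libraries, among them the WT libraries used in the choice of members, so the shared sign is no independent support. miR866-3p also passed the filter only through the first snrk2.2/3/6 library.

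The titles number the replicates but name no shared batch, so the numbers alone pair the libraries. With the replicate block edgeR called 3 sequences lower, 0 higher and 0 members in snrk2.2/3/6, with miR5026 at -0.29, miR840-5p at 1.40 and miR866-3p at 1.49, and the block changed no member's call. Deviations of same-numbered libraries correlated at 0.288 for WT with hyl1-2 and -0.301 for WT with snrk2.2/3/6, and a crossed block, chosen after seeing the data, called 2 lower, 0 higher and 0 members. Within same-numbered pairs hyl1-2 stood at 91.3% and 97.3% of WT for miR5026, 2878% and 602% for miR840-5p, and 166.8% and 88.6% for miR866-3p.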
